A study of Mus musculus with 9 samples.

Results

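NF-kB is a family of transcription factors, and the genes described here encode its 5 subunits (Nfkb1, Nfkb2, Rel, Rela and Relb), 3 regulators that feed back on it (Nfkbia, Tnfaip3 and Bcl3) and 2 widely used target genes (Birc3 and Icam1). The genes were picked by symbol as known parts of the pathway, with earlier results of these data known, and are 10 of the 25860 genes in the table of counts. All 10 passed the filter on low counts. Their expression was read from bulk RNA sequencing of Osx1-Cre cells isolated from the calvaria (skull roof) of newborn mice, with 5 libraries labelled IRE1KO and 4 labelled WT. Osx1-Cre is a transgene in which the promoter of osterix (Sp7), a factor of the osteoblast lineage, drives Cre recombinase. IRE1, encoded by Ern1, is a stress sensor of the endoplasmic reticulum. Both groups went through flow sorting and then culture in alpha-MEM plus 10% fetal bovine serum until 90% confluent. Each library is a pool from 3 to 5 pups, which were 2 to 4 days old. No treatment or inflammatory stimulus is named in the labels. The sources used here name neither the Ern1 allele nor the marker used in the sort nor the strain.

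In resting cells, NF-kB dimers are held in the cytoplasm by inhibitors of the IkB family. Signals from receptors for TNF, IL-1 or microbial products activate the IKK kinases, which mark IkB-alpha for destruction and release dimers of RelA and p50, whereas a slower arm driven by NIK processes p100 to p52 and frees RelB. The dimers switch on genes that include their own inhibitors, so that levels of Nfkbia and Tnfaip3 are often read as traces of recent activity. In bone, NF-kB is best known for its part in osteoclast formation downstream of RANKL, and in osteoblasts for restraining matrix formation under inflammation. IRE1 has been linked to IKK through the adaptor TRAF2 in other cell types.

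Libraries held 18784636 to 22028075 counts. The WT libraries stood further apart from one another than the IRE1KO libraries did: the first principal component, with 45.9% of the variance, placed WT library 4 at 56.7 and WT libraries 1 and 2 at -23.4, against -14 to 7.17 for the IRE1KO libraries. Ern1 was at 49.8 to 55.8 CPM (counts scaled to a common library size) in IRE1KO and 41.5 to 54.2 CPM in WT. It was not lower in IRE1KO (log2 fold change 0.17, adjusted p = 0.306, edgeR), so the genotype rests on the labels, and IRE1KO and WT stand throughout for libraries so labelled. A count per gene does not show whether exons are missing. Of 9 osteoblast markers 7 were high enough to test and none passed, with Runx2, Sp7, Alpl and the collagen genes present in every library. Log2 fold changes (IRE1KO over WT) were 0.19 for Col1a1, 0.16 for Col1a2, 0.021 for Runx2, -0.024 for Sp7 and -0.23 for Alpl. Of the later markers, Spp1 averaged 845.5 ± 106.5 CPM over the IRE1KO libraries and 1448.4 ± 585.8 CPM over the WT libraries (adjusted p = 0.205, edgeR), Ibsp 0.546 ± 0.39 and 2.29 ± 1.29 CPM (adjusted p = 0.152, edgeR) and Dmp1, too low to test, 0.281 ± 0.177 and 1.26 ± 0.69 CPM (SD, n = 5 and 4). Bglap, also too low to test, was at 0 to 0.192 CPM in IRE1KO and 0 to 0.103 CPM in WT. Of 14 macrophage and osteoclast markers, all 14 were high enough to test, and their summed level was 342.3 to 543.1 CPM in IRE1KO and 223.8 to 514.7 CPM in WT. Of 7 lymphocyte markers, 5 were at 0 in every library and none was high enough to test. In bulk samples such as these, fewer cells of a type and less RNA per cell cannot be told apart.

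Several NF-kB genes are known targets of NF-kB, and 4 of the members carry a match to its consensus before a RefSeq transcription start. RefSeq promoter windows (GRCm38.p6) were at hand for 8 of the 10 members, in 11 windows, and not for Nfkb1 and Relb. The kappaB consensus was searched on both strands in the 250 bases before each start, with overlapping matches merged. It was found in 6 of the 11 windows, belonging to Nfkb2, Nfkbia, Rel and Tnfaip3, and in 7.25% of all 32851 windows of that length. The 6 include several windows of Nfkb2, before its different starts. No match was found in the windows of Rela, Bcl3 and the target genes Birc3 and Icam1. The kappaB site of the immunoglobulin kappa enhancer, which is 1 form of this consensus and is shown in capitals in the last line below, was in 1 window, before the most downstream start of Nfkb2, and in 0.14% of all windows. The stretches below are shown because these genes are both parts and known targets of the pathway, with each match in capitals. Not shown are further matches of Nfkb2, beginning 11 bases before its first listed start and 236 bases before its middle one. GENCODE exons cover 0 bases of that middle window. A match is a description of the letters and not a bound site. Genes have more than 1 start, and the matches of Nfkb2 and Tnfaip3 lie inside the annotated span of the gene, downstream of its outermost start. Of the 250 bases in a window, GENCODE exons cover all 250 before the first listed start of Nfkb2, 234 before its last and 110 before the start shown for Tnfaip3, against 1 for Rel and 0 for Nfkbia.

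Nfkbia, chr12:55492648-55492777, minus strand, ending at the base before the start, with the match beginning 29 bases before it: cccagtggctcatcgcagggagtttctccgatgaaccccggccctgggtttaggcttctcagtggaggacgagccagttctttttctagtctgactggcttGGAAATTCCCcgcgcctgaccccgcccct
Tnfaip3, chr10:19015411-19015540, minus strand, ending at the base before the start, with matches beginning 125 and 12 bases before it: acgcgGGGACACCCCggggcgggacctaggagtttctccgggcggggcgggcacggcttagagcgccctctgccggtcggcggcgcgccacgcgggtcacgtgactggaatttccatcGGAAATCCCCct
Rel, chr11:23771041-23771070, minus strand, with the match beginning 92 bases before the start: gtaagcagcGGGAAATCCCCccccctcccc
Nfkb2, chr19:46304689-46304718, plus strand, with the match beginning 39 bases before its first listed start: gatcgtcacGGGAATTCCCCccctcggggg
Nfkb2, chr19:46305695-46305724, plus strand, with the enhancer form of the site beginning 225 bases before its last listed start: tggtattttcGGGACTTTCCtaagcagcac

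In the GRCm38 annotation the 5 subunit genes lie on 4 chromosomes, Nfkb1 at chr3:135584655-135691547 (minus strand), Nfkb2 at chr19:46304320-46312385 (plus), Rel at chr11:23736847-23770970 (minus), Rela at chr19:5637483-5648130 (plus) and Relb at chr7:19606217-19629438 (minus). The regulators Nfkbia, Tnfaip3 and Bcl3 are at chr12:55489410-55492647, chr10:19000910-19015657 and chr7:19808462-19822770, all on the minus strand. The targets Birc3 and Icam1 are both on chromosome 9, at chr9:7848699-7873186 (minus) and chr9:21015985-21028817 (plus).

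Reads of all 10 genes were found in every library. Per kilobase of exon, the transactivating subunit Rela was the highest, with 31.9 CPM per kb on average over the 9 libraries, above 90.1% of the 13590 tested genes that have an annotated length. Nfkbia, which encodes IkB-alpha, followed with 18.7, Nfkb2, which encodes p100 and p52, with 16.3 and Icam1, an adhesion molecule for leukocytes, with 14.1 CPM per kb. The ranges of these neighbours overlapped, Nfkbia lying above Nfkb2 in 7 of 9 libraries and Nfkb2 above Icam1 in 7 of 9. Nfkb1, which encodes p105 and p50, was next at 9.69 CPM per kb, below Icam1 and above Bcl3 in all 9 libraries.

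Further down the order came Bcl3, an atypical IkB protein that works with p50 and p52 in the nucleus, at 6.52 CPM per kb, Relb, the partner of p52, at 5.82 and Birc3, the ubiquitin ligase cIAP2, at 4.30. Bcl3 and Relb were close, with Bcl3 higher in 8 of 9 libraries. Tnfaip3, the ubiquitin-editing inhibitor A20, was at 2.93 CPM per kb and lay below Birc3 in 8 of 9 libraries. Rel, the subunit best known from lymphocytes, was the lowest in every library at 1.09 to 1.39 CPM per kb, above 18.4% of tested genes. Lengths are those of all annotated exons of a gene together, so that a gene with long rare exons, such as Nfkb1 with 12061 bases, can be understated.

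**Figure D1:**
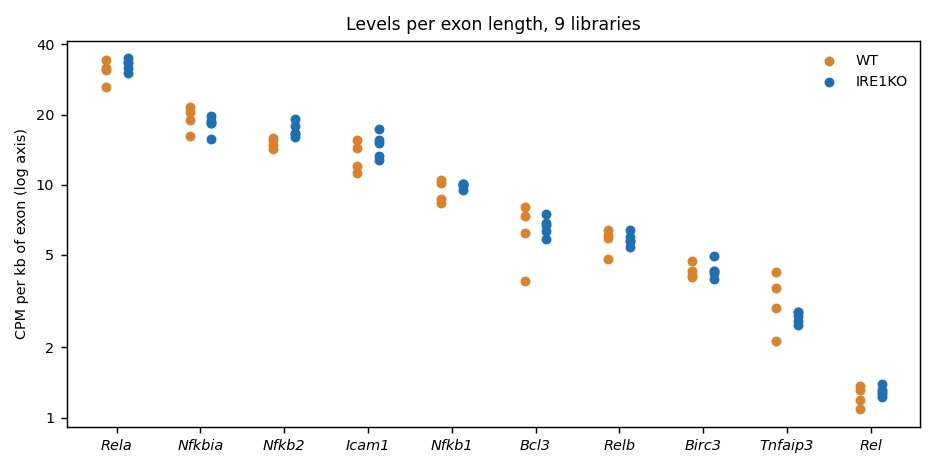
Levels of the 10 genes per kilobase of exon, in CPM per kb on a log axis, with 1 point for each of the 4 WT (orange) and 5 IRE1KO (blue) libraries and genes in order of their mean. Rela was above all others in all 9 libraries and Rel below all others, while the points of Nfkbia, Nfkb2 and Icam1 overlap.

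None of the 10 genes passed the test between IRE1KO and WT. The comparison asks whether the libraries labelled IRE1KO carry other levels of NF-kB components or feedback genes than those labelled WT. With edgeR's quasi-likelihood test and Benjamini-Hochberg adjustment over all 13712 tested genes, 0 of 10 had an adjusted p under 0.05, where 0.634% of tested genes did. At an unadjusted p under 0.05 the count was 1 of 10, against 16.5% of tested genes. It was 0 of 10 at the adjusted threshold with DESeq2, which called 3.77% of genes, and with limma voom, which called 0.117%. It was also 0 of 10 without WT library 1 and without WT library 4, where edgeR called 8.63% and 2.9% of tested genes. Log2 fold changes (IRE1KO over WT) were positive for 8 genes and negative for 2, where 48.4% of all tested genes were positive. Among the 8, the signs of Relb, Bcl3 and Birc3 turned when certain single libraries were left out. The median was 0.062 against -0.0050 over all tested genes.

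The intervals set bounds on what could have been missed, under a model in which both groups share the same spread. The SD in WT was 5.73, 4.42 and 3.04 times that in IRE1KO for Tnfaip3, Nfkb1 and Bcl3. For such genes the intervals may be too narrow. For 9 of the 10 genes, the 95% interval of the fold change lay within 1.5-fold in either direction, as it did for 74.8% of tested genes. Tnfaip3 was the exception, with an interval from 0.645-fold to 1.09-fold. An adjusted p above the threshold does not show that the groups were equal.

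Among the subunits, Nfkb2 was the gene whose groups did not overlap. It was at 73.4, 76.3, 81.7, 75.8 and 88.0 CPM in IRE1KO libraries 1 to 5 and at 65.3, 71.0, 72.4 and 68.0 CPM in WT libraries 1 to 4. Every IRE1KO library lay above every WT library, but the lowest IRE1KO value and the highest WT value were close. The difference was 1.14-fold (95% interval 1.04 to 1.25, log2 fold change 0.19 ± 0.059 SE), with a WT mean of 69.2 ± 3.14 CPM (SD, n = 4) and an IRE1KO mean of 79.1 ± 5.85 CPM (SD, n = 5). Its p was 0.00929 before and 0.174 after adjustment over all genes (edgeR), so it did not pass. For the other 9 members the adjusted p ran from 0.474 to 0.963 (edgeR). Groups that did not overlap were found in 6.93% of tested genes, with IRE1KO above in 3.65%.

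Leaving out any 1 library kept the Nfkb2 log2 fold change between 0.15 and 0.22, with an adjusted p of 0.126 to 0.305 (edgeR). The summed level of 9 endothelial markers was also apart between the groups, in the other direction, at 14.4 to 19.3 CPM in IRE1KO and 20.1 to 26.9 CPM in WT, and it ran against Nfkb2 over the 9 libraries (Pearson r = -0.84, Spearman rho = -0.95, a description). Both measures separate the groups, and with each group centred on its own mean r was -0.59. This was not particular to Nfkb2. Centred in the same way, r with the endothelial sum was -0.59 for Rela and -0.67 for Nfkbia. For Rel, Birc3 and Icam1 it was 0.4, 0.41 and 0.47. Of the endothelial list 6 genes were tested, with log2 fold changes from -1.99 to -0.026, and 1 passed. This was Pecam1, with a WT mean of 0.719 ± 0.167 CPM (SD, n = 4) and an IRE1KO mean of 0.174 ± 0.0902 CPM (SD, n = 5, adjusted p = 0.0497, edgeR). Its IRE1KO values, 0.0531 to 0.291 CPM, lay around the level of 3 reads (0.137 to 0.159 CPM). Tek, the highest of the list, averaged 6.49 ± 1.32 CPM in IRE1KO and 9.20 ± 5.80 CPM in WT (SD, adjusted p = 0.518, edgeR). Kdr averaged 1.23 ± 0.297 and 1.26 ± 0.461 CPM (SD), and Tie1 and Cldn5 were at 0 in every library. The part of endothelial cells in the Nfkb2 difference was not tested.

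Nfkb1, the closest relative of Nfkb2, was at 114.6, 121.3, 119.2, 121.2 and 121.2 CPM in IRE1KO and at 100.9, 104.4, 122.3 and 126.2 CPM in WT. The IRE1KO libraries were nearly equal, and the WT libraries were split, with 1 and 2 below and 3 and 4 above all IRE1KO values. The log2 fold change was 0.075 ± 0.068 SE. The ratio of Nfkb2 to Nfkb1 counts within a library, into which no scaling enters, was 0.661 ± 0.0432 (SD, n = 5) in IRE1KO and 0.614 ± 0.0621 (SD, n = 4) in WT, and the groups overlapped.

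Rela was at 102.4, 97.4, 103.5, 92.5 and 107.2 CPM in IRE1KO and at 97.8, 105.8, 95.1 and 80.9 CPM in WT. The groups overlapped, and WT library 4 was the lowest of the 9 (log2 fold change 0.084 ± 0.076 SE). Relb was at 20.9 to 24.9 CPM in IRE1KO and 18.6 to 24.9 CPM in WT, with a log2 fold change of 0.012 ± 0.087 SE and a 95% interval of 0.88-fold to 1.16-fold. Rel was at 9.11 to 10.4 CPM in IRE1KO and 8.11 to 10.2 CPM in WT (0.066 ± 0.084 SE). The smallest count behind any of these values was 158 reads, for Rel in WT library 2, and counting alone gives a coefficient of variation of 7.27% at the mean count of Rel. The sign for Relb was not fixed by these data, being negative without WT library 1 (-0.070) or IRE1KO library 5 (-0.024).

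**Figure D2:**
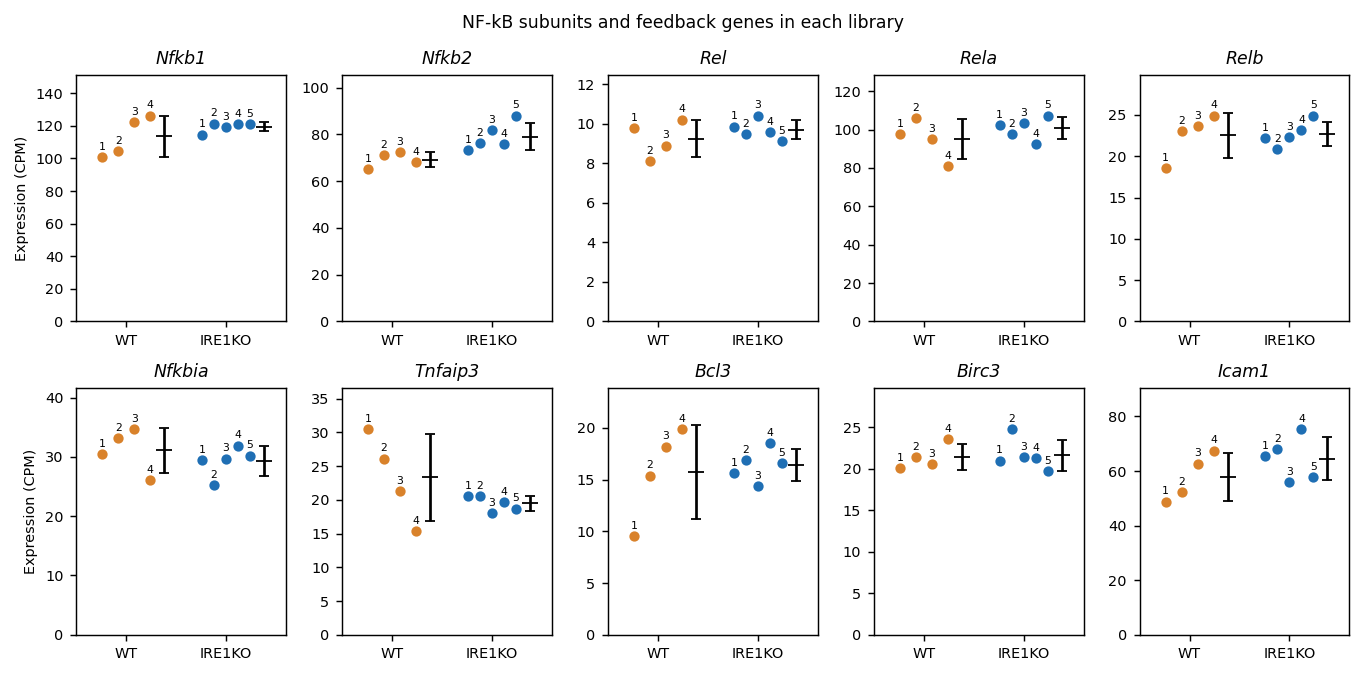
Expression of each gene in CPM, with 1 point per library numbered as in the labels, WT in orange and IRE1KO in blue, and the mean with its SD in black. Nfkb2 is the gene whose groups do not overlap, and in Tnfaip3 and Bcl3 the 4 WT points spread over 15.4 to 30.5 and 9.55 to 19.9 CPM, around all the IRE1KO points.

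The feedback inhibitor Nfkbia was at 29.5, 25.2, 29.7, 31.9 and 30.2 CPM in IRE1KO and at 30.5, 33.1, 34.7 and 26.1 CPM in WT. The groups overlapped through WT library 4 and the upper IRE1KO libraries, and the fold change was 0.942 (95% interval 0.817 to 1.09). Relative to Rela within the same library, Nfkbia counts were 0.292 ± 0.0318 (SD, n = 5) in IRE1KO and 0.328 ± 0.0246 (SD, n = 4) in WT, again with overlap.

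Tnfaip3, whose product A20 removes activating ubiquitin chains, had the largest fold change of the 10 in size. It was at 20.5, 20.6, 18.0, 19.7 and 18.7 CPM in IRE1KO and at 30.5, 26.1, 21.3 and 15.4 CPM in WT. Of the WT libraries, 3 were above all IRE1KO libraries and WT library 4 was below them all. The log2 fold change was -0.26 ± 0.17 SE, with a p of 0.156 before and 0.474 after adjustment over all genes (edgeR).

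Its size rested on which WT libraries were included. Without WT library 4 the log2 fold change of Tnfaip3 was -0.41 (adjusted p = 0.0681, edgeR), and without WT library 1 it was -0.10 (adjusted p = 0.694, edgeR). The osteoblast marker list, whose sum is made up largely of the collagen genes Col1a1 and Col1a2, moved against Tnfaip3 over the 9 libraries (r = -0.90, rho = -0.82, and r = -0.83 over the 7 libraries other than WT 1 and 4). That sum was 36904.3 to 41005.9 CPM in IRE1KO, and 28536.4, 27494.5, 32263.7 and 54037.7 CPM in WT libraries 1 to 4. Its part in the Tnfaip3 values was not tested.

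Bcl3 was at 15.6, 16.9, 14.4, 18.5 and 16.6 CPM in IRE1KO and at 9.55, 15.4, 18.2 and 19.9 CPM in WT. The IRE1KO mean was 16.4 ± 1.5 CPM (SD, n = 5) and the WT mean 15.8 ± 4.55 CPM (SD, n = 4), and WT library 1 was the lowest and WT library 4 the highest of the 9. The log2 fold change was 0.058 ± 0.18 SE, turned to -0.12 without WT library 1 and reached 0.19 without WT library 4. Against counting error of 5.57%, the coefficient of variation of Bcl3 was 28.8% within WT and 9.12% within IRE1KO.

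Birc3 and Icam1, the target genes, also overlapped between groups. Birc3 was at 19.7 to 24.8 CPM in IRE1KO and 20.1 to 23.6 CPM in WT (log2 fold change 0.012 ± 0.076 SE), and its sign turned without WT library 1, WT library 3 or IRE1KO library 2. Icam1 was at 65.6, 68.1, 55.8, 75.4 and 57.8 CPM in IRE1KO and at 48.8, 52.2, 62.7 and 67.5 CPM in WT. IRE1KO libraries 1, 2 and 4 and WT library 4 were high, and WT libraries 1 and 2 were low. The difference was 1.12-fold (95% interval 0.929 to 1.34, adjusted p = 0.532, edgeR).

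Icam1 is carried by many cell types, and its level went with the summed macrophage and osteoclast markers from library to library. The summed level of those 14 markers was 454.8, 498.4, 342.3, 543.1 and 355.7 CPM in IRE1KO libraries 1 to 5 and 353.5, 223.8, 487.9 and 514.7 CPM in WT libraries 1 to 4. The correlation with Icam1 on the log2 scale was r = 0.83 (rho = 0.92) over the 9 libraries and r = 0.91 over the 7 other than WT 1 and 4, as a description. None of the 14 differed between the groups at an adjusted p under 0.05 (edgeR), or at an unadjusted p under 0.05. The largest part of the sum is Ctsk, which stromal cells can also express, averaging 186.7 ± 16.3 CPM over the IRE1KO and 150.5 ± 36.8 CPM over the WT libraries (SD). Icam1 also went with the osteoblast marker sum (r = 0.71, rho = 0.67). Other members moved with these sums too. Nfkb1 went with the macrophage and osteoclast sum (r = 0.7, rho = 0.68) and with the osteoblast sum (r = 0.81, rho = 0.6). Bcl3 went with the macrophage and osteoclast sum (r = 0.48, rho = 0.88), and Rela ran against it (r = -0.66, rho = -0.83). Csf1r, the receptor that defines the macrophage lineage, was at 18.4 to 37.6 CPM in IRE1KO and 9.70 to 34.5 CPM in WT. The part of macrophages or osteoblasts in the Icam1 values was not tested.

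**Figure D3:**
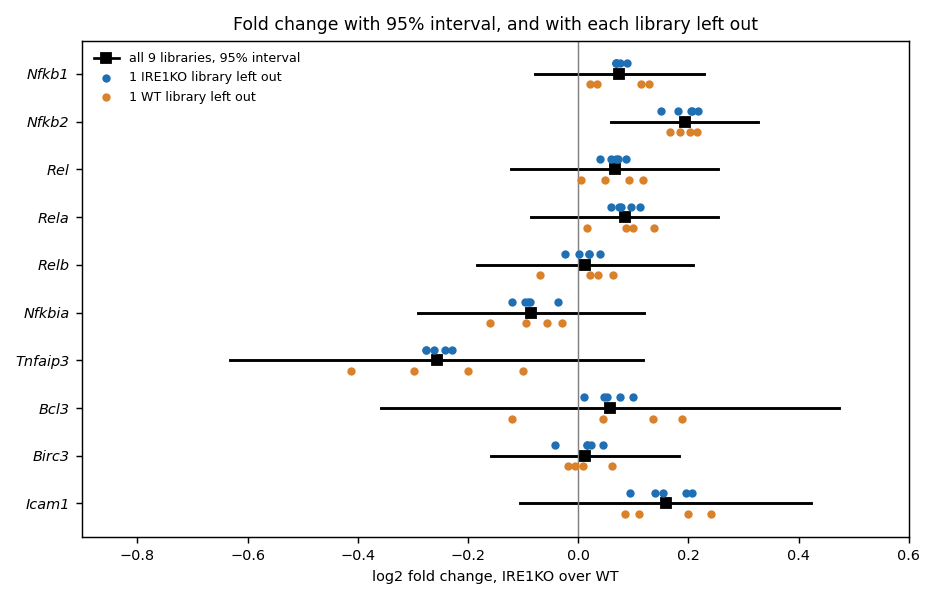
Log2 fold change of each gene, IRE1KO over WT, with all 9 libraries (black square, line for the 95% interval) and with 1 library left out (blue for an IRE1KO library, orange for a WT library). The interval of Nfkb2 lies above 0 before adjustment for the number of genes, and the orange points of Tnfaip3 and Bcl3 spread from -0.41 to -0.10 and from -0.12 to 0.19.

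Within WT the feedback genes did not move as a block. WT library 1 combined the highest Tnfaip3 with the lowest Bcl3, Nfkb1, Relb, Nfkb2 and Icam1 of the 9 libraries, and WT library 4 combined the lowest Tnfaip3 and Rela with the highest Bcl3 and Nfkb1. The ratio of Tnfaip3 to Bcl3 counts was 3.20, 1.69, 1.17 and 0.772 in WT libraries 1 to 4 and 1.31, 1.22, 1.25, 1.07 and 1.12 in IRE1KO libraries 1 to 5. The IRE1KO libraries thus stayed in a narrow band that the WT libraries straddled. The SD was larger in WT than in IRE1KO for 8 of the 10 genes, all but Nfkb2 and Birc3, against 82.6% of all tested genes. The highest WT library exceeded the lowest by 1.99-fold for Tnfaip3 and 2.08-fold for Bcl3, where the median over 9970 tested genes of at least 10 CPM was 1.22-fold and 7.83% reached 2-fold.

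Of the 45 pairs of members, 21 had a positive correlation of log2 CPM over the 9 libraries. The correlations given here are descriptions, and 2 WT libraries weigh heavily in several of them. Without these libraries some correlations were weaker and others stronger. Nfkb1 went with Bcl3 (r = 0.83, rho = 0.85) and Icam1 (r = 0.76, rho = 0.63) and against Tnfaip3 (r = -0.91, rho = -0.53). Over the 7 libraries other than WT 1 and 4 these were 0.52, 0.57 and -0.80. Relb and Bcl3, which lie 179 kb apart on chromosome 7, had r = 0.84 over 9 libraries and 0.27 over the 7.

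The members with a consensus match before their start had correlations of either sign with one another. The correlation with Nfkbia was -0.02 for Nfkb2, 0.45 for Tnfaip3 and -0.57 for Rel over the 9 libraries, and Nfkb2 and Tnfaip3 had r = -0.45. Over the 7 libraries other than WT 1 and 4 these were -0.33, 0.36, -0.48 and -0.76. Nfkbia ran against Birc3 (r = -0.76, and -0.71 over the 7 libraries), and Rela against Icam1 (r = -0.53, and -0.83 over the 7 libraries).

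**Figure D4:**
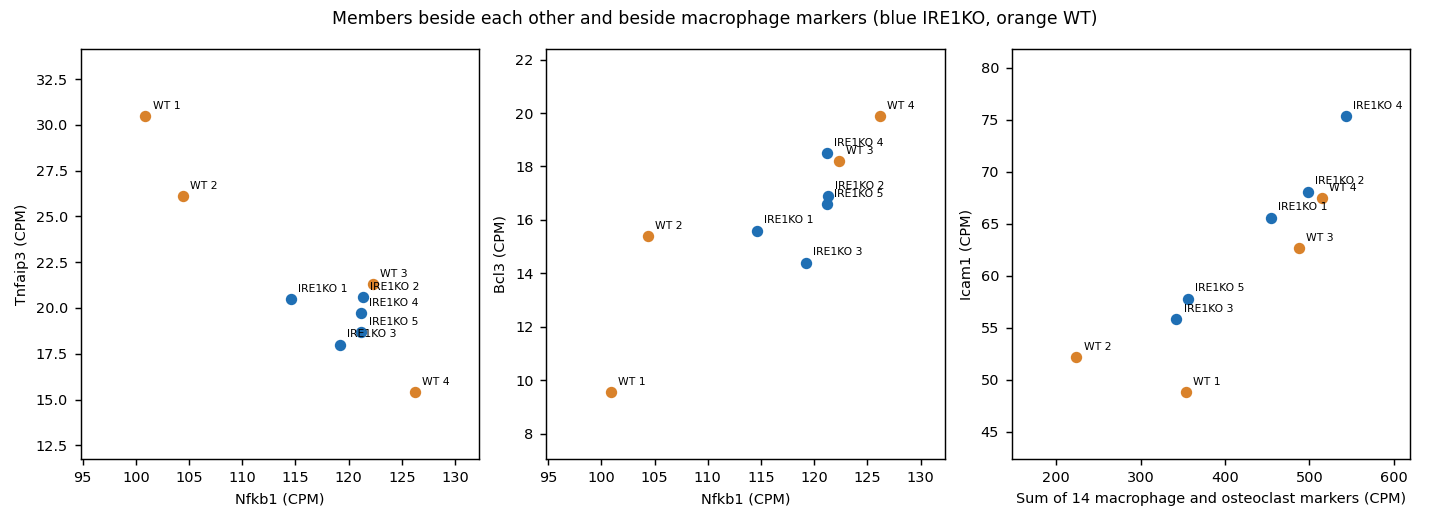
Tnfaip3 against Nfkb1, Bcl3 against Nfkb1, and Icam1 against the sum of 14 macrophage and osteoclast markers, all in CPM, with 1 labelled point per library (blue IRE1KO, orange WT). WT library 1, with 30.5 CPM of Tnfaip3 and 9.55 CPM of Bcl3, and WT library 4, with 15.4 and 19.9 CPM, are at opposite ends, and Icam1 is highest in IRE1KO library 4, which has the highest marker sum.

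Among 11090 other tested genes with at least 5 CPM, those most like Nfkb2 over the 9 libraries by Pearson correlation of log2 CPM were Pld2 (r = 0.973), Sart1 (r = 0.963) and Ssrp1 (r = 0.942). The closest to Nfkbia were AI413582 (r = 0.932), Cpne2 (r = 0.923) and Optn (r = 0.918), and the closest to Icam1 were Mitd1 (r = 0.969), Apip (r = 0.957) and Pla2g7 (r = 0.957). No other member was among the closest: by likeness to Nfkb2, Rela ranked 983 and Nfkb1 1350, and by likeness to Icam1, Bcl3 ranked 416 and Nfkb1 489. These names are a description over 9 libraries, with no test.

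The rest of the pathway was 94 listed genes, of which 81 were tested, with a median log2 fold change of 0.015. At an adjusted p under 0.05 (edgeR) 1 gene rose and none fell, where 0.634% of tested genes passed. At an unadjusted p under 0.05, 10 were higher and 7 lower in IRE1KO, against 16.5% of tested genes in either direction. The groups did not overlap for 6 genes with IRE1KO above and 3 with it below, against 3.65% and 3.28% of tested genes. In the list of other target genes (24 tested), 5 were higher and 3 lower at the unadjusted threshold. Of all 13712 tested genes, 979 were higher and 1284 lower at that threshold. The higher ones in the list were the chemokine genes Cxcl1, Cxcl2, Cxcl5 and Ccl7 and also Gadd45b, and the lower ones Xiap, Cflar and Bcl2l1. The gene that passed after adjustment was Cxcl5, a neutrophil chemokine in the list of other target genes. It was at 187.1, 208.7, 137.2, 200.2 and 141.9 CPM in IRE1KO and at 82.8, 90.1, 112.9 and 84.0 CPM in WT. The groups were well apart, at 1.89-fold (95% interval 1.49 to 2.40, adjusted p = 0.0475, edgeR). The call of Cxcl5 held without WT library 1 or 4 and was lost without any 1 of the other libraries, with limma voom and with no filter on low counts. Without 1 library the adjusted p reached 0.146, while its log2 fold change stayed between 0.85 and 1.03.

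Upstream of the subunits, no gene passed. In the IkB family (4 tested) the nuclear IkB protein gene Nfkbid was at 1.2 to 2.64 CPM over all libraries, with a log2 fold change of 0.47 ± 0.18 SE (adjusted p = 0.242, edgeR). Nfkbib, encoding IkB-beta, had 0.12 ± 0.073 SE. Of 13 kinases and kinase adaptors, Ikbke, which encodes IKK-epsilon, had -0.21 ± 0.061 SE and Tab3 -0.090 ± 0.044 SE. Map3k14 (NIK), the kinase that drives processing of p100 and was chosen after its value was seen, averaged 17.8 ± 1.57 CPM over the 5 IRE1KO libraries and 17.3 ± 2.03 CPM over the 4 WT libraries (SD). Of 13 adaptors and ubiquitin ligases, Traf5 had -0.27 ± 0.074 SE with all IRE1KO libraries (10.1 to 11.5 CPM) below all WT libraries (12.5 to 15.1 CPM), and Fadd -0.13 ± 0.079 SE. Traf2, named for its link to IRE1 and also outside the naming rule, averaged 23.3 ± 1.66 CPM in the former and 23.0 ± 3.24 CPM in the latter (SD).

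Among 13 tested negative regulators, Pdlim2, which promotes degradation of RelA, had -0.17 ± 0.046 SE and Tax1bp1, an adaptor of A20, had 0.11 ± 0.032 SE on the log2 scale, both with groups that did not overlap and an adjusted p of 0.140 and 0.163 (edgeR). Among 11 tested receptors, Tlr4, the receptor for bacterial lipopolysaccharide, had -0.22 ± 0.065 SE and Cd40, at 0.523 to 1.79 CPM, 0.65 ± 0.29 SE. Of 11 listed ligands 3 were high enough to test. Tnf was at 0.212 to 1.48 CPM, close to the floor of 3 reads (0.137 to 0.159 CPM), and Il1b and Cd40lg had 0 reads in every library, which allows up to that floor. Tnfsf11, which encodes RANKL, was at 13.4 to 15.0 CPM in IRE1KO and 8.79 to 13.3 CPM in WT (0.48 ± 0.12 SE, adjusted p = 0.110, edgeR). Without WT library 4, Tlr4 and Tnfsf11 passed, and without WT library 1, Ikbke, Pdlim2 and Tax1bp1 did.

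**Figure D5:**
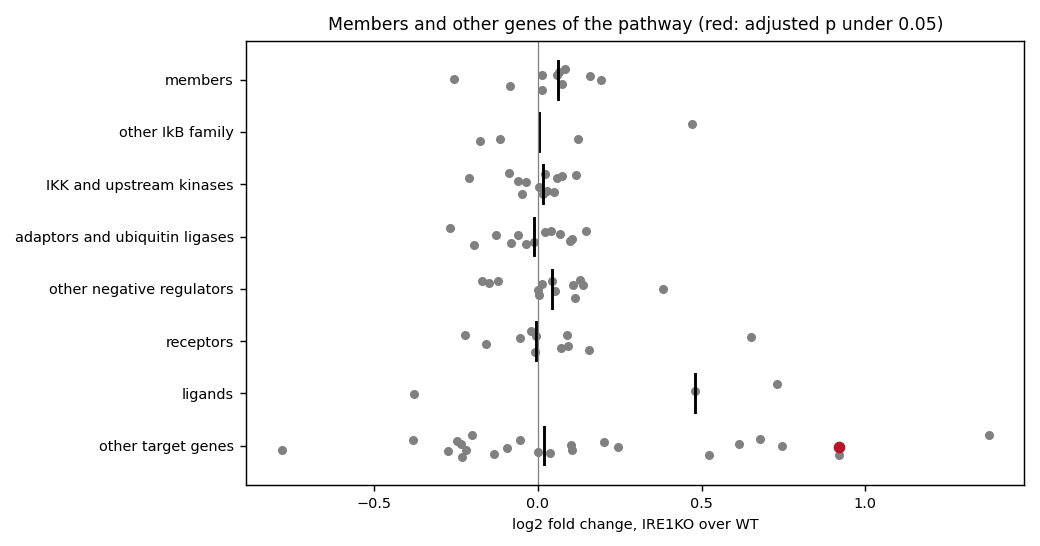
Log2 fold change, IRE1KO over WT, of the 10 members and of 81 tested genes in 7 lists of the pathway, with 1 point per gene, scattered vertically for legibility, and a black bar at each list's median. Cxcl5 (red) is the gene with an adjusted p under 0.05, and the members lie between -0.26 and 0.19.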

How the data were processed

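Per the file headers, the authors deposited raw counts of reads per gene, 1 column per library, with no normalization. STAR, limma and mm10 are named per the submitters' processing notes. No source used here names the counting program, the annotation release or the strand setting, and reads of overlapping genes could have been shared. Genes were kept with filterByExpr (13712 tested), scaled by TMM and compared with edgeR 4.0.16 (quasi-likelihood, robust, genotype alone) in R 4.3.3, with Benjamini-Hochberg adjustment over all tested genes and a threshold of 0.05. SE is the log2 fold change over the root of F. CPM uses TMM-scaled library sizes, and log2 CPM a prior count of 2. Positions and exon lengths came from GENCODE M21 (GRCm38), by identifier. Alternatives were DESeq2 1.42.0, limma 3.58.1 voom, another scaling, 2 other filters, a replicate block and each library left out. The steps were tested on simulated counts. Members and gene lists were chosen with earlier results of these data known. All 10 members are named, and of each list the genes that passed, or otherwise the 2 with the smallest p. The labels call each pool of pups 1 biological replicate. Tnfsf12 had no row under its symbol or identifier. Otulin and Adgre1 were matched by identifier.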

Additional observations from a re-analysis of the deposited data

How the results depend on the processing

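No member was called under any of the 15 alternatives, and in 143 of 150 refits of single members the direction and the side of the threshold were those of the full fit. Directions that turned were those of Relb, Bcl3 and Birc3, with log2 fold changes of 0.012, 0.058 and 0.012 in the full fit. Without 1 library in turn, Relb ranged from -0.070 to 0.063, Bcl3 from -0.12 to 0.19 and Birc3 from -0.043 to 0.061. Under the replicate block Relb was at -0.018. The number of other pathway genes called, 1 with all libraries, ranged from 0 to 6 without 1 library. It was 5 without WT library 1 (Cxcl5 and Tax1bp1 higher, Ikbke, Pdlim2 and Vcam1 lower), 6 without WT library 4 (Cxcl5 and Tnfsf11 higher, Bcl2l1, Cflar, Plau and Tlr4 lower), 4 with DESeq2 (Cxcl1, Cxcl5, Tax1bp1 and Tnfsf11, all higher), 0 with limma voom and 0 with no filter beyond 1 count. Over all tested genes the number called was 87 with all libraries, 2 to 1192 without 1 library (1192 without WT library 1, 399 without WT library 4, at most 8 without any 1 of the others), 582 with DESeq2, 16 with limma voom and 45 with no filter. The cause of these shifts was not tested. Under the replicate block, over replicates 1 to 4 of both groups, 0 members, 0 other pathway genes and 0 of 13658 tested genes were called, and 1594 genes had an unadjusted p under 0.05 (edgeR). Same-numbered libraries had correlations of deviations of 0.151, -0.204, -0.194 and 0.473, and 4 of 8 libraries correlated best with their own number. These values do not settle whether the numbers mark pairs, and the main fit used genotype alone.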

Other observations

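Several pathway genes shared the spread of Tnfaip3 among the WT libraries. They were chosen after their values were seen, as those with the widest WT range among 66 pathway genes of at least 10 CPM. Ptgs2, which encodes the prostaglandin synthase COX-2, was at 868.0, 516.3, 296.0 and 100.6 CPM in WT libraries 1 to 4, an 8.63-fold range, and at 372.0 to 484.9 CPM in IRE1KO. Ier3, an immediate early gene, was at 63.0, 56.9, 45.9 and 22.2 CPM in WT and 32.9 to 43.1 CPM in IRE1KO, and Tnfrsf12a, the receptor for TWEAK, at 93.2, 84.2, 56.8 and 35.4 CPM in WT and 73.3 to 79.8 CPM in IRE1KO. In each of these 3 genes, as in Tnfaip3, WT library 1 was the highest and WT library 4 the lowest of the 9 libraries. WT library 4 (56.7) also stood far from WT libraries 1 and 2 (both -23.4) on the first principal component over all tested genes. The share of all tested genes with this order is not given here, so the order is not shown to be particular to the pathway. Mmp13, a collagenase, and Nlrc5, a regulator of MHC class I genes, were highest in WT library 4, at 636.3 and 37.1 CPM, and lowest in WT library 2, at 74.8 and 4.52 CPM.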
